A study of Rattus norvegicus with 100 samples.

Results

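Primary rat hepatocytes exposed for 72 h to 0.1 µM GW7647 were compared with hepatocytes exposed for the same time to 0.01 µM. GW7647 is a synthetic agonist of peroxisome proliferator-activated receptor α (PPARα). The arrays were chosen by their labels alone, as those that give 72 h and either concentration, which are 7 of the 100 arrays in the study. At 0.1 µM there were 3 arrays, of rats Rs628, Rs631 and Rs632, and at 0.01 µM there were 4, of rats Rs627, Rs628, Rs631 and Rs632, so that 3 rats gave a pair. No 0.1 µM array of Rs627 at 72 h was analysed here. The hepatocytes were kept on collagen IV under a Geltrex layer, and each array measured the total RNA of 1 culture. The other arrays at 72 h held 0, 0.001, 1 and 10 µM, with 4, 4, 4 and 3 arrays, and the labels do not state whether the 0 µM cultures received the solvent. The labels used here give no strain, sex or age of the rats. The comparison asks what the next step up in agonist changes after this long an exposure.

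PPARα is a ligand-activated transcription factor that binds DNA as a partner of the retinoid X receptors, at direct repeats of a short half-site spaced by a single base. In liver it is known for switching on the enzymes that take up, activate and burn fatty acids in mitochondria and peroxisomes and hydroxylate them in the endoplasmic reticulum, together with proteins of lipid droplets and of glycerol handling. In rodents its agonists enlarge the peroxisome compartment, and they are also known to lower messages of inflammation and of plasma proteins.

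Signal was given as deposited log2 values, and a gene was tested where its probe set lay above a log2 value of 5, taken here as the floor, in at least 3 of the 22 arrays at 72 h. The 75th percentile of an array, taken as its overall signal, was 6.63, 6.95, 6.66 and 6.67 at 0.01 µM (Rs627, Rs628, Rs631, Rs632) and 6.87, 6.68 and 6.83 at 0.1 µM (Rs628, Rs631, Rs632), so that the 0.01 µM array of Rs628 stood above the other 3. Of the 7 arrays, 3 carry a plate position that the labels also give to another array, where a label that ends in _2 is read as the same position. The 3′ minus 5′ signal of β-actin, a measure of RNA integrity, ranged from 1.69 to 2.10 at 0.01 µM and from 1.78 to 2.07 at 0.1 µM, and that of GAPDH from 0.39 to 0.48 and from 0.24 to 0.45. The groups overlapped in both. All 8 measured hepatocyte markers were above the floor in all 7 arrays, among them albumin (Alb, 13.65 to 13.76). Of the markers of other cells, 6 of 8 for macrophages, 4 of 8 for stellate cells and fibroblasts, 6 of 6 for endothelium, 1 of 5 for bile duct and 3 of 6 for fat cells were at or under the floor in all 7 arrays. In bulk RNA, fewer cells of a type and less RNA per cell cannot be told apart.

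At 0.1 µM, 592 of 8247 genes tested differed from 0.01 µM (limma with the rat as a block, Benjamini-Hochberg adjusted p under 0.05), which is 7.18% of the genes. Of these, 355 were higher (4.3% of the genes tested) and 237 were lower (2.87%). Changes were mostly moderate: 44 genes rose and 36 fell by at least 2-fold, and the median log2 difference was 0.48 among the rises and -0.62 among the falls, against 0.01 over all genes tested. The direction was the same in all 3 paired rats for 587 of the 592, a condition that 38.2% of all genes tested met. The values of the groups did not overlap for 266 of the 592, against 6.8% of all genes tested. Without the rat in the model 56 genes passed (0.679% of the genes tested; 51 higher and 5 lower), all of them among the 592. Without rat Rs632 the count was 126, and without Rs628 it was 267. Without the 3 arrays at repeated plate positions, and others of that kind at 72 h, it was 283. The number of arrays limits the precision, and p-values measure the spread between the cultures of these 4 rats.

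The leading change was in Acot1, a cytosolic enzyme that cleaves acyl-CoA to free fatty acid and coenzyme A. Its log2 signal at 0.01 µM was 7.36 in Rs627, 7.48 in Rs628, 6.75 in Rs631 and 5.60 in Rs632, and at 0.1 µM it was 11.62 in Rs628, 11.18 in Rs631 and 11.49 in Rs632. All 3 arrays at 0.1 µM lay far above all 4 at 0.01 µM, and the 0.1 µM arrays lay closer together. The log2 difference was 4.76 ± 0.30 (SE), a 27.0-fold rise (95% confidence interval of the log2 difference 4.13 to 5.39, limma adjusted p = 1.52e-07), and it passed in each of the 24 alternatives in which the gene was fitted. Of the 7 acyl-CoA thioesterases tested from the list, 5 rose and none fell, and the median log2 difference of the list was 1.02. The other rises were Acot12 (1.22 ± 0.14), Acot7 (1.03 ± 0.13), the peroxisomal Acot8 (1.02 ± 0.13) and the mitochondrial Acot2 (0.71 ± 0.15). The Acot genes are close relatives, so probe sets of Acot1 and Acot2 may share signal and the values of both are uncertain to that extent. Acot2 had an adjusted p of 0.173 without Rs632 and 0.0626 without Rs628.

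**Figure D1:**
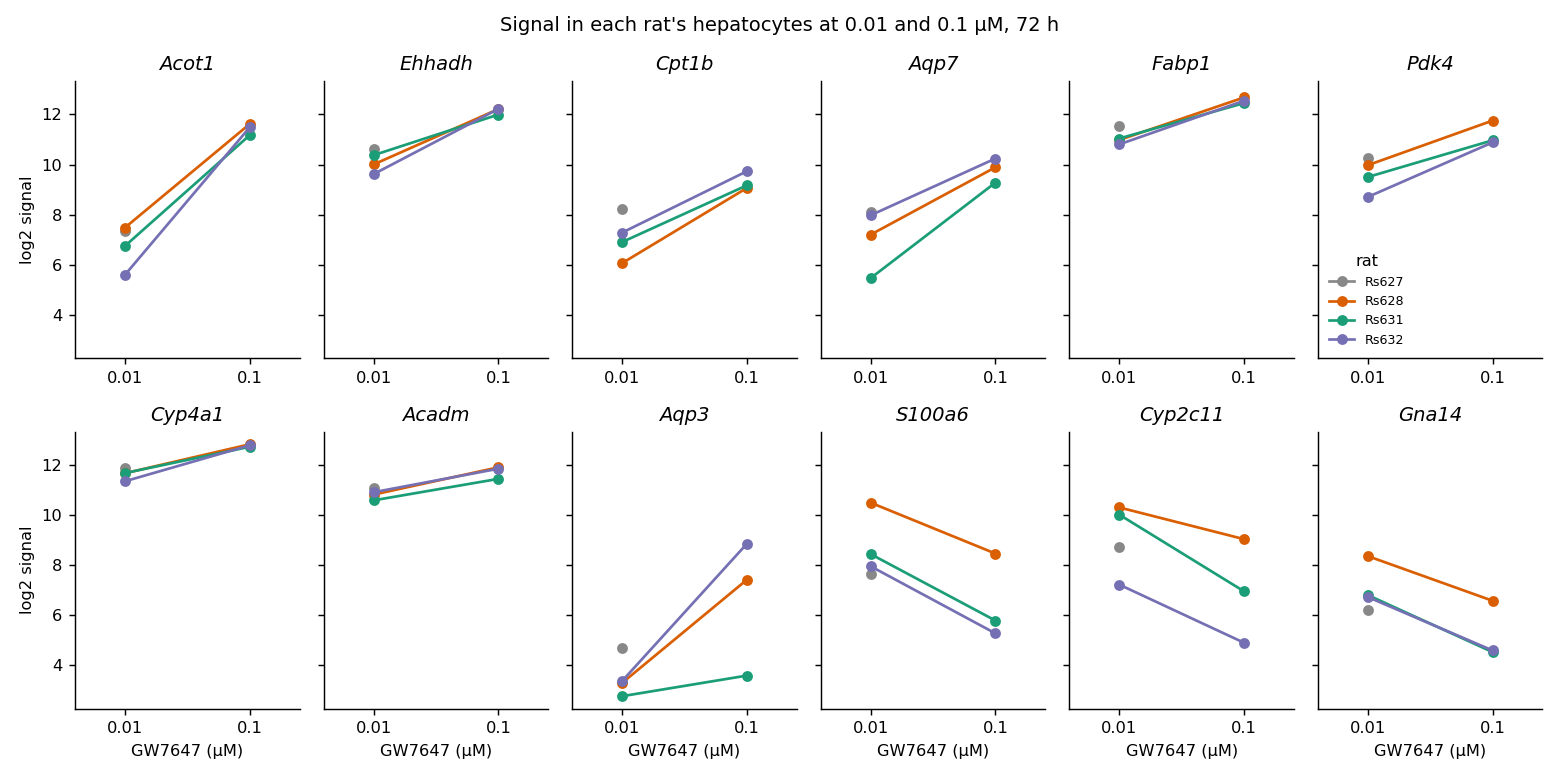
Log2 signal (vertical axis) of 12 genes at 0.01 and 0.1 µM GW7647 (horizontal axis) after 72 h. Each point is 1 array, coloured by rat, and lines join the arrays of a rat. Rs627 has a point at 0.01 µM only. Acot1 rises from between 5.60 and 7.48 to between 11.18 and 11.62. Aqp3 rises above the floor in Rs628 and Rs632 but only to 3.59, under the floor, in Rs631. S100a6, Cyp2c11 and Gna14 fall in each paired rat from different starting levels.

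Peroxisomal oxidation shortens very long and branched fatty acids. Of its 16 genes tested, 11 rose, none fell and 5 did not pass, with a median log2 difference of 0.44 against 0.01 over all genes. Without Rs632, 6 rose, without Rs628, 7, and without the rat in the model, 4. Ehhadh, the bifunctional enzyme of the pathway and a classical PPARα target, measured 10.64, 10.00, 10.37 and 9.62 at 0.01 µM in the order Rs627, Rs628, Rs631, Rs632, and 12.22, 12.00 and 12.22 at 0.1 µM in the order Rs628, Rs631, Rs632, an order used for all values that follow. The groups did not overlap, and the 0.1 µM arrays lay within a narrow band. Ehhadh rose by 2.05 ± 0.20 on the log2 scale, which is 4.14-fold (limma adjusted p = 1.11e-05).

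Hacl1, the lyase of the α-oxidation route for branched fatty acids, went from 9.84, 9.35, 9.13 and 9.43 to 10.81, 10.43 and 10.94. Its groups did not overlap either, and the rise was 1.37 ± 0.14 (2.58-fold, adjusted p = 1.8e-05). Nudt7, which cleaves coenzyme A inside peroxisomes, rose by 1.20 ± 0.11, and Ech1, a dienoyl-CoA isomerase, by 0.79 ± 0.07, both with adjusted p = 1.06e-05. Smaller rises were those of Crot, the carnitine octanoyltransferase (0.75 ± 0.12), the membrane transporter Abcd3 (0.71 ± 0.10), Eci2 (0.58 ± 0.09), the multifunctional enzyme Hsd17b4 (0.42 ± 0.08), the acyl-CoA synthetase Slc27a2 (0.38 ± 0.08) and catalase (Cat, 0.35 ± 0.08). Scp2 (log2 difference 0.22), Phyh (0.22), Pecr (0.12), Nudt19 (0.08) and Acox2 (0.08) did not pass. For Acox2, the branched-chain acyl-CoA oxidase, the 95% interval ran from -0.20 to 0.36. Without Rs632 the adjusted p of Eci2, Hsd17b4, Slc27a2 and Cat became 0.0512, 0.122, 0.144 and 0.182, and without Rs628 that of the last 3 became 0.0502, 0.113 and 0.108.

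Peroxins build the organelle itself. Of 13 tested, 6 rose, none fell, and the median log2 difference was 0.29. Without Rs632, 2 of the 13 rose, without Rs628, 3, and without the rat in the model, 1. Pex11a, which elongates and divides peroxisomes, measured 10.39, 9.70, 8.92 and 9.91 at 0.01 µM and 10.94, 10.05 and 11.13 at 0.1 µM. Here the groups overlapped, because Rs631 was low at both concentrations, while each rat rose. In the fit with the rat as a block, which also uses the unpaired arrays, the log2 rise was 1.10 ± 0.19 (2.15-fold, limma adjusted p = 0.00203). Pex19, the chaperone of peroxisomal membrane proteins, rose by 1.10 ± 0.14, and the membrane proteins Pex16 and Pex3 by 0.71 ± 0.10 and 0.59 ± 0.15. Without Rs632 the adjusted p of Pex11a and Pex3 was 0.086 and 0.263, and that of Pex3 was 0.142 without Rs628.

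In mitochondria, 20 of the 23 tested genes of β-oxidation and the carnitine shuttle rose and none fell, with a median log2 difference of 0.63. Cpt1b, the muscle form of the transferase that loads fatty acyl groups onto carnitine, measured 8.21, 6.06, 6.90 and 7.28 at 0.01 µM and 9.06, 9.17 and 9.73 at 0.1 µM. Its groups did not overlap, although Rs627 at 0.01 µM was within 1 log2 unit of the lowest 0.1 µM array. The rise was 2.43 ± 0.23 (5.38-fold, limma adjusted p = 1.11e-05).

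Crat, the carnitine acetyltransferase, went from 8.13, 7.76, 7.43 and 7.43 to 9.50, 8.70 and 9.25, again with no overlap. Its log2 rise of 1.55 ± 0.13 (2.92-fold) had an adjusted p of 5.4e-06. Slc25a20, the carrier that exchanges acylcarnitines across the inner membrane, rose by 0.77 ± 0.09, and Mlycd, which removes the malonyl-CoA that blocks the shuttle, by 0.82 ± 0.10. Among the enzymes of the oxidation spiral, Acadm, the medium-chain dehydrogenase, measured 11.09, 10.82, 10.59 and 10.92 at 0.01 µM and 11.91, 11.45 and 11.86 at 0.1 µM. Every 0.1 µM array was higher than every 0.01 µM array, and the rise was 0.94 ± 0.10 (1.91-fold, adjusted p = 2.41e-05). Hadha, a subunit of the trifunctional protein, rose by 0.74 ± 0.08 (its other probe set was at 0.15, adjusted p = 0.747), the isomerase Eci1 by 0.69 ± 0.07, the thiolase Acaa2 by 0.63 ± 0.08, the dienoyl-CoA reductase Decr1 by 0.52 ± 0.07 and the dehydrogenase Hadh by 0.50 ± 0.07. The 3 that did not pass were Echs1 (0.22, adjusted p = 0.059), Etfa (0.13, adjusted p = 0.197) and Mcee (0.20, adjusted p = 0.338). Without Rs632, 12 of the 23 passed, and without Rs628, 16. With no rat in the model 11 passed. The genes of the respiratory chain moved little: 2 of 20 tested rose, Tfam by 0.37 ± 0.10 and Sdhd by 0.29 ± 0.08, where 4.3% of all genes tested rose. Neither passed when any 1 of the 4 rats was left out. Of the 20 differences 19 were above 0, and the list's median was 0.11 against 0.01 over all genes.

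**Figure D2:**
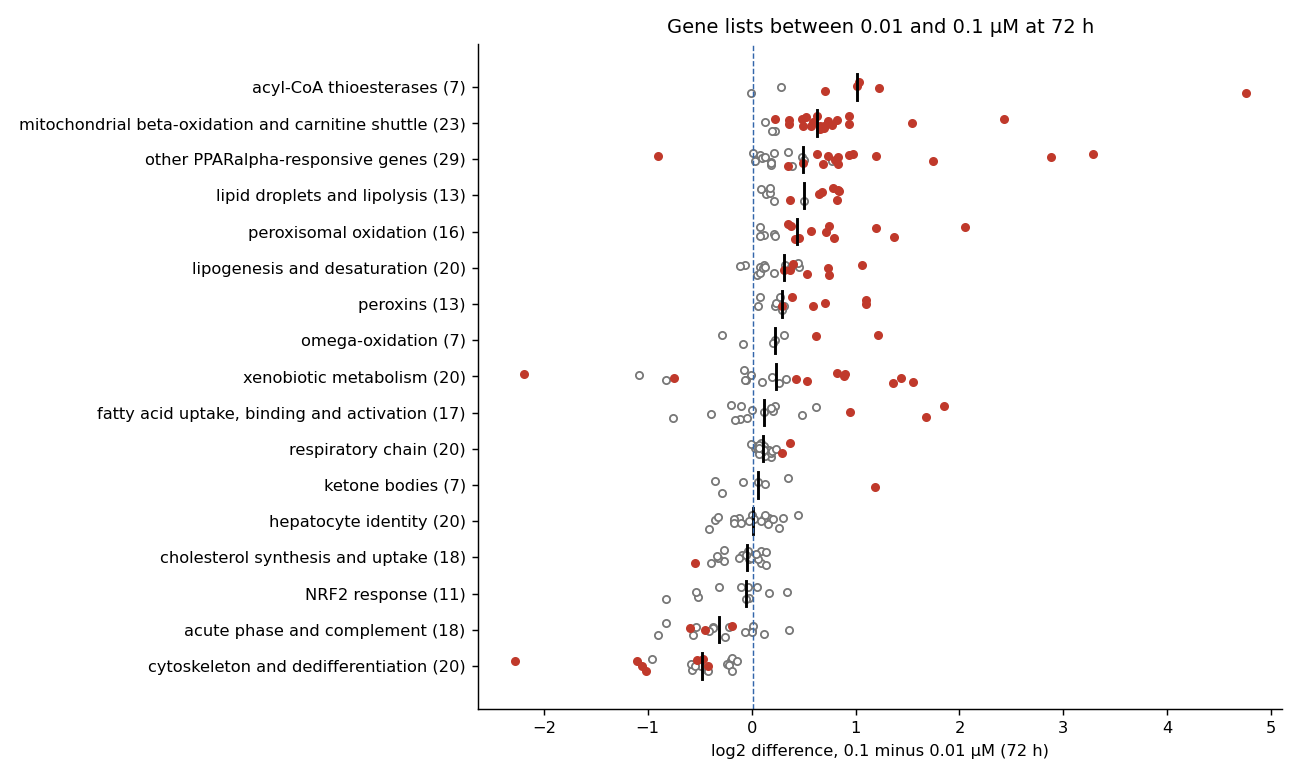
Log2 difference between 0.1 and 0.01 µM at 72 h (horizontal axis) for each tested member of 17 gene lists (vertical axis, with the number tested in brackets). Filled points have a limma adjusted p under 0.05, open points do not, black bars are list medians and the dashed line is the median of all genes tested. The filled points of the mitochondrial, peroxisomal, peroxin, thioesterase and lipid droplet lists all lie to the right of 0, and those of the cytoskeletal list all lie to the left.

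Fatty acids enter oxidation after uptake, binding and activation. In that list 3 of its 17 tested genes rose and none fell, where 4.3% of all genes tested rose. Its median log2 difference was 0.12. Acsl1, the main acyl-CoA synthetase of liver, measured 11.49, 11.20, 10.99 and 11.42 at 0.01 µM and 12.29, 11.95 and 12.31 at 0.1 µM. Its groups did not overlap, and it rose by 0.95 ± 0.09 (1.93-fold, adjusted p = 1.06e-05). The uptake protein Cd36 (0.48, adjusted p = 0.0702), the acyl-CoA binding protein Dbi (0.19, adjusted p = 0.0631), Acsl3 (0.62, adjusted p = 0.0708) and the liver transporter Slc27a5 (-0.75, adjusted p = 0.163) did not pass.

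Fabp1, the abundant fatty acid binding protein of hepatocytes, measured 11.55, 10.98, 11.04 and 10.80 at 0.01 µM and 12.68, 12.46 and 12.55 at 0.1 µM. The groups did not overlap, and the 3 arrays at 0.1 µM lay close together. The rise was 1.68 ± 0.22 (3.21-fold, adjusted p = 0.000167). Fabp3, the form typical of heart muscle, behaved otherwise. It lay under the floor in all 4 arrays at 0.01 µM (4.06, 3.98, 4.35 and 3.85) and measured 5.99, 4.11 and 7.31 at 0.1 µM, so that Rs631 remained under the floor and was lower than at 0.01 µM. With values under the floor set to it, the mean rise over the 3 pairs was at least 2.14-fold. As measured, the log2 difference was 1.85 ± 0.53 (adjusted p = 0.0421), and it did not pass without Rs632 (0.502), Rs628 (0.2) or Rs627 (0.104).

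Promoters were searched for the direct repeat AGGNCANAGGNCA, in which N is any base, on both strands of the 300 bases around each start site. Of 33469 RefSeq promoters of the GRCr8 assembly, 139 held it (0.415%), and of 7595 promoters of genes tested here, 22 held it (0.29%). It was present in 3 of 331 promoters of genes that rose and in 1 of 226 promoters of genes that fell, that of Pcolce. The 3 promoters of rising genes are shown because they belong to genes of this comparison that carry the repeat near the start site. They are those of Fabp1, the glycogen synthase Gys2 and the cytochrome P450 Cyp2d3, and the capitals mark the repeat. The match begins 77 bases before the start site in Fabp1, where it lies on the opposite strand, 80 bases before it in Gys2 and 73 bases before it in Cyp2d3. The match is in the letters only, and binding was not measured.
Fabp1, chr4:104749090-104749389, plus strand: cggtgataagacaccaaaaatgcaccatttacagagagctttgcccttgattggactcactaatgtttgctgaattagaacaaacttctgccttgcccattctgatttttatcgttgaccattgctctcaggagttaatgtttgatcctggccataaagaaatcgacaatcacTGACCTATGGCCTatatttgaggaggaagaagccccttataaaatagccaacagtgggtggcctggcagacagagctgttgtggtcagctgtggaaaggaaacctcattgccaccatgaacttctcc
Gys2, chr4:177137187-177137486, minus strand: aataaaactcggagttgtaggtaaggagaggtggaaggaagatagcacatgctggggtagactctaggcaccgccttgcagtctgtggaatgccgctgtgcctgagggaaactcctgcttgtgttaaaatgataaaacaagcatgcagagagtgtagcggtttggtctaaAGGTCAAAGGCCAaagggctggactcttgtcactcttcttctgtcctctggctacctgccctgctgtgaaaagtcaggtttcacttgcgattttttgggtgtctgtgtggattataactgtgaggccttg
Cyp2d3, chr7:115802093-115802392, minus strand: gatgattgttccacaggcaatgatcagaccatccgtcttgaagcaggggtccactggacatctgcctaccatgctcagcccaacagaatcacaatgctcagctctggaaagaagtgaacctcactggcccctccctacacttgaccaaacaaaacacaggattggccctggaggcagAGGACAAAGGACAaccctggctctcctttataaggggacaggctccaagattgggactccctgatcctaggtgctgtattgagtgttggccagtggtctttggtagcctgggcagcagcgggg

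Gys2 and Pcolce, an enhancer of procollagen processing, are named because of the repeat, after their values were seen. Pcolce fell by 0.62 (SE 0.17, adjusted p = 0.0333). Gys2 rose by 0.54 ± 0.13 (adjusted p = 0.0229, and 0.2 without Rs632 and 0.106 without Rs628). Cyp2d3 measured 10.92, 10.12, 10.22 and 10.82 at 0.01 µM and 11.21, 11.10 and 11.49 at 0.1 µM, with no overlap, and rose by 0.82 ± 0.13 (1.76-fold, adjusted p = 0.000646).

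ω-Oxidation hydroxylates the far end of a fatty acid. Of 7 genes tested, 2 rose, Cyp4a1 and Cyp4a3, and none fell. Cyp4a1 measured 11.90, 11.68, 11.68 and 11.35 at 0.01 µM and 12.83, 12.73 and 12.79 at 0.1 µM. The groups did not overlap, and the 0.1 µM values lay close together. Cyp4a1 rose by 1.21 ± 0.13 (2.32-fold, adjusted p = 2.41e-05) and Cyp4a3 by 0.62 ± 0.13 (adjusted p = 0.00818, and 0.189 without Rs632). The probe sets of these near relatives may share signal. Cyp4f1 was at -0.28 (adjusted p = 0.0885). In the ketone body list 1 of 7 tested genes rose, Acat1, the mitochondrial acetoacetyl-CoA thiolase, by 1.19 ± 0.12 (adjusted p = 1.52e-05). Of all genes tested, 4.3% rose.

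The glycerol channels Aqp7 and Aqp3 were among the largest rises. Aqp7 measured 8.12, 7.20, 5.46 and 7.97 at 0.01 µM and 9.89, 9.28 and 10.24 at 0.1 µM. The groups did not overlap, and the rise was 2.88 ± 0.40 (7.34-fold, adjusted p = 0.000289). Its relative Aqp3 lay under the floor in all 4 arrays at 0.01 µM (4.71, 3.30, 2.77 and 3.37) and measured 7.42, 3.59 and 8.86 at 0.1 µM. Rs628 and Rs632 passed far above the floor while Rs631 stayed under it. With values under the floor set to it, the rise was at least 4.27-fold, and as measured the log2 difference was 3.29 ± 0.68 (adjusted p = 0.00663, but 0.208 without Rs632 and 0.127 without Rs628).

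Gk, the glycerol kinase, went from 10.59, 10.32, 9.75 and 10.01 to 11.69, 10.86 and 11.33 without overlap and rose by 1.20 ± 0.13 (2.3-fold, adjusted p = 3.69e-05). Gpd2, the mitochondrial glycerol phosphate dehydrogenase, measured 6.01, 6.24, 5.45 and 5.89 at 0.01 µM and 7.60, 6.77 and 7.57 at 0.1 µM, and rose by 1.43 ± 0.18 (2.69-fold, adjusted p = 9.53e-05). Gpd1, the cytosolic form, rose by 0.83 ± 0.19 (adjusted p = 0.0123, and 0.173 without Rs632). Both dehydrogenases had groups that did not overlap.

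The list of other PPARα-responsive genes, which holds these aquaporins, Gk and Gpd1, had 14 rises and 1 fall among 29 tested, and its median log2 difference was 0.50. The fall was that of a further glycerol channel, Aqp9 (by 0.91, SE 0.23, adjusted p = 0.0255), which is named after its value was seen. It was lost without Rs631, without Rs632 and without the rat in the model. The 14 rises became 8 without Rs632, 10 without Rs628 and 3 without the rat in the model. Pdk4, the kinase that shuts off pyruvate dehydrogenase, measured 10.26, 9.97, 9.50 and 8.70 at 0.01 µM and 11.75, 10.97 and 10.88 at 0.1 µM. The groups did not overlap, and it rose by 1.75 ± 0.22 (3.36-fold, adjusted p = 9.58e-05). Pank1, the first enzyme of coenzyme A synthesis, rose by 0.94 ± 0.15, malic enzyme (Me1) by 0.80 ± 0.09, the retinol saturase Retsat by 0.98 ± 0.11, the pantetheinase Vnn1 by 0.69 ± 0.09 and Hsdl2 by 0.63 ± 0.08. Retsat shows how the rats differed: it measured 11.38, 9.17, 11.25 and 10.66 at 0.01 µM and 10.05, 12.17 and 11.91 at 0.1 µM. Rs628 at 0.1 µM was lower than 3 of the 0.01 µM arrays, yet each rat rose, and without the rat in the model the adjusted p was 0.859. The hormone gene Fgf21 (0.49, 95% interval 0.01 to 0.97, adjusted p = 0.229) and the transcription factor Creb3l3 (0.34, adjusted p = 0.0608) did not pass.

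Of 13 lipid droplet and lipolysis genes tested, 7 rose and none fell, with a median of 0.51. The count was 3 without Rs632, 3 without Rs628 and 2 without the rat in the model. Cidea, a droplet-fusing protein known from fat cells, measured 10.80, 10.49 and 11.45 in Rs627, Rs628 and Rs632 and about 11 in Rs631 at 0.01 µM, and 11.50, 11.86 and 12.09 at 0.1 µM. The groups were separated by a narrow margin, and the rise was 0.84 ± 0.11 (1.79-fold, adjusted p = 0.000161). The fat cell markers Adipoq, Plin1 and Lep were under the floor in all 7 arrays, whereas Cidea and Cidec were above it in all 7 and Fabp4 in 3. The summed level of that list ran from 11.42 to 12.01 at 0.01 µM and from 12.16 to 12.48 at 0.1 µM, a sum in which Cidea is the only gene that rose. The lipases Pnpla2 and Mgll rose by 0.83 ± 0.11 and 0.79 ± 0.11, and the droplet proteins Fitm2, Plin5 and Plin2 by 0.65 ± 0.14, 0.68 ± 0.15 and 0.36 ± 0.08. Cidec was at 0.09 (95% interval -0.20 to 0.38). Without Rs632 the last 3 rises had adjusted p of 0.135, 0.192 and 0.144, and without Rs628 of 0.142, 0.125 and 0.0617, and Plin2 did not pass without Rs631 either (0.0523). Plin2 has 2 further probe sets, at -0.20 and 0.28, and neither passed.

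Lipogenesis and desaturation had 7 rises among 20 tested genes, no fall, and a median of 0.32. There were 2 rises without Rs632, 1 without Rs628 and 1 without the rat in the model. Fads2, a desaturase of polyunsaturated fatty acids, measured 6.79, 6.95, 6.97 and 6.53 at 0.01 µM and 8.33, 7.59 and 7.43 at 0.1 µM, with no overlap, and rose by 1.06 ± 0.25 (adjusted p = 0.016). Dgat1, which makes triglyceride, rose by 0.74 ± 0.08 (adjusted p = 2.41e-05), the elongase Elovl6 by 0.73 ± 0.14, the regulator Srebf1 by 0.53 ± 0.09 and the desaturase Scd by 0.31 ± 0.07. The core enzymes of synthesis did not pass: Fasn was at 0.12 (95% interval -0.23 to 0.47), Acaca at -0.07 (-0.33 to 0.20) and Acly at 0.05 (-0.31 to 0.42). Without Rs628 the adjusted p of Fads2, Elovl6, Srebf1 and Scd was 0.146, 0.0759, 0.0542 and 0.0757, and without Rs632 that of Fads2, Elovl6 and Scd was 0.122, 0.135 and 0.144. Scd did not pass without Rs631 either (0.0552).

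Among receptors, their partners and coregulators, 4 of 16 tested genes rose and none fell, with a median of 0.16. Without Rs632, 1 rose, without Rs628, 2, and none did without the rat in the model. Rxrg, the γ form of the retinoid X receptor, measured 7.01, 5.81, 6.42 and 6.46 at 0.01 µM and 7.18, 7.20 and 7.71 at 0.1 µM, with no overlap, and rose by 1.10 ± 0.15 (2.15-fold, adjusted p = 0.000276). Nr1i3, the constitutive androstane receptor, measured 5.86, 5.04, 4.81 and 4.48 and then 6.94, 4.95 and 6.26, with Rs631 under the floor at both concentrations. It rose by 1.22 ± 0.27 (adjusted p = 0.0116), but not without Rs632 (0.222) or Rs628 (0.133). Nr1h3, the liver X receptor α, rose by 0.40 ± 0.07 and the coactivator Ncoa1 by 0.43 ± 0.11, and neither passed without Rs632 (0.132 and 0.226), nor Ncoa1 without Rs628 (0.176). The message of PPARα itself (Ppara) was under the floor in 6 of the 7 arrays. The log2 difference of Ppara was 0.02, with a 95% interval from -0.51 to 0.55. Pparg (0.41, adjusted p = 0.209) and Ppard (-0.18, adjusted p = 0.504) did not pass, and Rxra lay under the filter.

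Cytochromes P450 and their partners went both ways. In the xenobiotic list 8 of 20 tested genes rose, 2 fell, and the median was 0.23. The 8 rises became 2 without Rs632 and 4 without Rs628, and 1 gene fell in each fit without Rs628, Rs631 or Rs632. Without the rat in the model none of the 20 passed. Cyp2c11, the main P450 of male rat liver, measured 8.73, 10.31, 10.02 and 7.23 at 0.01 µM and 9.04, 6.96 and 4.90 at 0.1 µM. The groups overlapped, since the rats started from very different levels, but each paired rat fell. The log2 difference was -2.19 ± 0.37 (4.56-fold lower, adjusted p = 0.00139), and the adjusted p was 0.56 without the rat in the model.

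Cyp3a2 rose by 1.44 ± 0.29 (2.72-fold, adjusted p = 0.00621, and 0.109 without Rs632), from 7.03, 4.92, 6.22 and 8.06 to 5.75, 8.43 and 9.50, with overlapping groups. Cyp2e1 was under the floor in all 4 arrays at 0.01 µM and in Rs628 at 0.1 µM (4.50), and measured 6.58 in Rs631 and 6.77 in Rs632. With values under the floor set to it, that is at least 2.17-fold, and the measured difference was 1.55 ± 0.41 (adjusted p = 0.0309, and 0.195 without Rs632, 0.195 without Rs631 and 0.0758 without Rs627). Cyp2j4 rose by 0.89 ± 0.13, Cyp3a18 by 0.90 ± 0.19 and their electron donor Por by 0.54 ± 0.11. Without Rs632 the adjusted p of Cyp3a18 and Por was 0.159 and 0.0944, and without Rs628 it was 0.1 and 0.0843. Signal of close P450 relatives may be shared between probe sets. In the bile acid list Cyp8b1, which sets the share of cholic acid, rose by 1.75 ± 0.43 (3.37-fold, adjusted p = 0.0211), from 6.75, 6.63 and 6.46 in Rs627, Rs628 and Rs632 and about 7 in Rs631 to 8.33, 7.90 and 8.78 without overlap. Abcc2, the export pump for bilirubin conjugates, fell by 0.77 (SE 0.20, adjusted p = 0.0247). These were the only calls among 15 tested genes of the list, where 4.3% of all genes tested rose and 2.87% fell. Cyp8b1 did not pass without Rs627 (0.0669), Rs628 (0.0652) or Rs632 (0.0916), nor Abcc2 without Rs628 (0.0924), Rs631 (0.0664) or Rs632 (0.272).

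Several of the largest rises belong to no list. Serpine2, an inhibitor of extracellular serine proteases, measured 6.59, 5.92, 4.94 and 6.03 at 0.01 µM and 7.84, 7.97 and 8.66 at 0.1 µM. The groups did not overlap, and it rose by 2.42 ± 0.22 (5.35-fold, adjusted p = 1.06e-05) and passed in each of the 24 alternatives. Adig, a small protein of fat cell differentiation, rose by 1.79 ± 0.21 (3.46-fold), from 5.71, 5.39, 5.63 and 4.52 to 7.57, 6.90 and 6.67. The hydrolase-like Abhd1 rose by 1.56 ± 0.17, from 6.54, 6.67, 6.55 and 6.65 to 8.22, 7.80 and 8.61, and the kinase Nim1k by 1.61 ± 0.22. Adig and Abhd1 had no overlap between groups.

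Cacna2d3, an auxiliary subunit of calcium channels, was under the floor in all arrays at 0.01 µM and measured 5.07, 5.29 and 6.62 at 0.1 µM. It rose at least 1.58-fold against the floor, with a measured difference of 1.92 ± 0.23 (adjusted p = 6.99e-05). The chemokine Cxcl12 rose by 1.78 ± 0.36 and Faxdc2, a hydroxylase-like protein, by 2.37 ± 0.65 (adjusted p = 0.00653 and 0.035). In Cxcl12 the array of Rs631 at 0.1 µM (4.76) was under the floor. Without Rs632 both were lost (0.191 and 0.305), Cxcl12 also without Rs628 (0.108), and Faxdc2 also without Rs631 (0.174) and Rs627 (0.0567).

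The falls were led by S100a6, a small calcium-binding protein. It measured 7.63, 10.50, 8.44 and 7.96 at 0.01 µM and 8.47, 5.79 and 5.28 at 0.1 µM. Rs628 was the highest array at both concentrations, so that the groups overlapped, while the differences within Rs628, Rs631 and Rs632 were -2.03, -2.66 and -2.68. The log2 difference was -2.28 ± 0.37 (4.85-fold lower, adjusted p = 0.00119). It became 0.0584 without Rs632 and 0.461 without the rat in the model.

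S100a6 belongs to the list of cytoskeletal and dedifferentiation genes, in which 7 of 20 tested genes fell, none rose and all 20 differences were below 0, with a median of -0.48. S100a11 fell by 1.06 (SE 0.15), Flna, the actin cross-linker filamin A, by 1.02 (SE 0.16), and the membrane-binding annexins Anxa3 and Anxa2 by 1.10 (SE 0.20) and 0.42 (SE 0.07). S100a10, the partner of Anxa2, fell by 0.47 (SE 0.13). Flna measured 8.22, 9.42, 8.20 and 7.85 at 0.01 µM and 8.31, 7.23 and 6.74 at 0.1 µM. Again Rs628 was highest at both concentrations and the groups overlapped. β-Actin (Actb) was at -0.20 and did not pass (adjusted p = 0.0973). Without Rs632, 2 of the 20 fell, without Rs628, 4, and without the rat in the model, none. Anxa3 (0.0696), Anxa2 (0.0595) and S100a10 (0.135) did not pass without Rs632, Anxa3 (0.0624) and S100a10 (0.182) not without Rs628, and S100a10 not without Rs631 (0.105). With the 0.01 µM array of Rs628 alone left out, 5 fell, and with no rat in the model none passed. The summed level of the stellate cell and fibroblast markers ran from 7.59 to 8.30 at 0.01 µM and from 7.55 to 8.15 at 0.1 µM. Col1a1, Des, Pdgfrb and Lrat were under the floor in all 7 arrays. Acta2 (5.41 to 5.80) and Col3a1 (5.60 to 7.38) were above it in all 7, Col1a2 in 4 and Dcn in 1. The summed level of the bile duct markers ran from 9.87 to 11.16 and from 9.88 to 10.40. Epcam (9.74 to 10.9) was above the floor in all 7 arrays, Spp1 in 5, Krt7 and Krt19 in 2 each, and Sox9 in none. In the longer lists of such genes, 7 stellate cell and fibroblast genes were tested, none passed, 2 differences were above 0 and the median was -0.30. The lowest were Tagln (-1.02, adjusted p = 0.0949), Vim (-0.82, adjusted p = 0.0669) and Timp1 (-0.80, adjusted p = 0.174). Of 5 bile duct genes tested none passed either, with a median of -0.39, and the lowest were Cd24 (-1.07, adjusted p = 0.156) and Krt19 (-0.78, adjusted p = 0.363). These 5 genes are named after their values were seen, and their part in the falls was not tested.

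Further large falls were those of single genes. Gna14, a G protein α subunit, measured 6.21, 8.37, 6.81 and 6.73 at 0.01 µM and 6.58, 4.53 and 4.59 at 0.1 µM, with Rs631 and Rs632 under the floor at 0.1 µM. With values under the floor set to it, Gna14 fell at least 3.42-fold, and the measured log2 difference was -1.93 ± 0.27 (adjusted p = 0.000289). Its other probe set was at -0.60 and did not pass (adjusted p = 0.202). The groups overlapped through Rs628. Pla1a, a secreted phospholipase, went from 7.56, 7.48, 7.04 and 7.98 to 6.12, 4.56 and 5.99 without overlap and fell by 1.83 (SE 0.31). Pkdcc, a secreted kinase, fell by 1.29 (SE 0.15), from 9.88, 10.52, 9.92 and 9.79 to 9.65, 8.53 and 8.28, also without overlap. Both Pla1a and Pkdcc passed without any 1 of the 4 rats.

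Among the remaining falls the log2 difference was -1.74 ± 0.33 for Acta1, the skeletal muscle actin, -1.74 ± 0.27 for Popdc2, -1.68 ± 0.35 for caveolin 1 (Cav1) and -1.32 ± 0.22 for Cox6a2, the muscle form of a cytochrome c oxidase subunit. The difference was -1.66 ± 0.38 for the neutrophil chemokine Cxcl1, -1.59 ± 0.47 and -1.48 ± 0.32 for the transcription factors Sox4 and Egr1, and -1.58 ± 0.28 for the glycoprotein Gpnmb. It was -1.27 ± 0.33 for the glutathione transferase Gstp1 and -1.26 ± 0.16 for Tspan3. In all of these but Gpnmb and Cox6a2 the groups overlapped. Without the rat in the model none of these genes passed, among them Acta1 (0.838), Popdc2 (0.202), Cav1 (0.721) and Tspan3 (0.631). Cav1 has 2 further probe sets, at -1.20 and -0.65, and neither passed. Without Rs632, Cxcl1 (0.092), Sox4 (0.136), Egr1 (0.0944), Gpnmb (0.0946) and Cox6a2 (0.0512) no longer passed. Without Rs628, Cxcl1 (0.104), Egr1 (0.0914) and Gstp1 (0.225) did not, and Sox4 did not without Rs627 (0.0947) or Rs631 (0.201).

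Plasma protein genes fell little. Of 18 tested acute phase and complement genes, 3 fell and none rose, where 2.87% of all genes tested fell. The median of the list was -0.31. Fgb, the fibrinogen β chain, measured 12.27, 12.92, 11.88 and 11.97 at 0.01 µM and 12.46, 11.51 and 11.04 at 0.1 µM. The groups overlapped through Rs628, and Fgb fell by 0.60 (SE 0.13, adjusted p = 0.00944). Fga fell by 0.45 (SE 0.11, adjusted p = 0.0227) and hemopexin (Hpx) by 0.19 (SE 0.06, adjusted p = 0.0468), while the third fibrinogen chain, Fgg, was at -0.37 and did not pass (adjusted p = 0.0535). Without Rs632 none of the 18 passed, and neither Fga nor Hpx passed without any 1 of the other 3 rats. Of 20 hepatocyte identity genes none passed, and their median was 0.02. Alb was at 0.01 (95% interval -0.11 to 0.13), Ttr at -0.12, Apob at 0.16 and Hnf4a at 0.13. Hnf4a has 2 further probe sets, at 0.61 (adjusted p = 0.0587) and 0.59 (adjusted p = 0.00219), so that its result depends on the probe set. In the macrophage list 2 genes were tested and Lyz2, a lysozyme, fell by 1.07 (SE 0.25, adjusted p = 0.0157, and 0.0869 without Rs632 and 0.0887 without Rs631). The other, Cd68, did not pass and was above the floor in 2 of the 7 arrays. Cd163, Ptprc, Csf1r and Clec4f were under the floor in all 7 arrays.

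The remaining lists had few calls, where 4.3% of all genes tested rose and 2.87% fell. In lists this short, 1 call is not read as a result of the list. Of 11 NRF2 response genes tested none passed, with a median of -0.06. Of 18 cholesterol genes 1 fell, Idi1 (by 0.54, SE 0.15, adjusted p = 0.0428, but 0.365 without Rs632, 0.148 without Rs631 and 0.0526 without Rs627), and of 16 genes of the ATF4 and unfolded protein response 1 fell, Sdf2l1 (by 0.65, SE 0.15). Of 9 cell cycle genes 1 fell, cyclin D1 (Ccnd1, by 0.79, SE 0.22, adjusted p = 0.0365), which did not pass without any 1 of the 4 rats. In glucose and amino acid metabolism Fbp1, of gluconeogenesis, and pyruvate carboxylase (Pc) rose by 0.42 ± 0.06 and 0.76 ± 0.16, and Ass1, of the urea cycle, fell by 0.69 (SE 0.13), among 18 tested. Without Rs632 the adjusted p of Sdf2l1, Pc and Ass1 was 0.107, 0.172 and 0.0744, without Rs628 that of Pc was 0.119, and without Rs631 that of Sdf2l1 was 0.117. Of 11 clock genes none passed.

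The place of this step in the whole range is described for single genes by their levels at all 6 concentrations. Whether it differed between genes was not tested. The mean log2 signal of Acot1 was 4.02, 3.67, 6.80, 11.43, 12.05 and 12.17 at 0, 0.001, 0.01, 0.1, 1 and 10 µM. Most of its rise lay between 0.001 and 0.1 µM, and little was added above. Fabp1 had means of 8.78, 9.51, 11.09, 12.56, 12.92 and 12.93, and Cyp4a1 of 9.97, 10.21, 11.65, 12.79, 12.96 and 13.06, so that both had passed much of their range at 0.01 µM. Of the fitted difference between 10 and 0 µM on the log2 scale, Acot1 had reached 33.6% at 0.01 µM and 91.1% at 0.1 µM, Fabp1 53.0% and 91.5%, and Ehhadh 45.7% and 86.9%.

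Other genes had more of their rise above this step. Fabp3 had means of 3.74, 3.79, 4.06, 5.80, 9.89 and 10.55, and Gpd2 of 5.97, 5.83, 5.90, 7.31, 8.91 and 9.15. For Fabp3 0.1 µM stood at 31.4% and for Gpd2 at 42.5% of the 10 µM difference. Among the falls S100a6 had reached 75.7% and Cyp2c11 47.3%. Acot1 and Fabp3 at 0 µM and Cyp2c11 at 10 µM had means under the floor, so their shares depend on signal that was not above it. Of the 592 genes, 377 had a passing 10 µM difference over 1 in size on the log2 scale and in the direction of this step. Their median share at 0.1 µM was 62.5% for the 195 rises (quartiles 52.6% and 72.6%). For the 182 falls it was 61.4% (quartiles 52.0% and 71.9%). These genes were chosen by the same step.

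**Figure D3:**
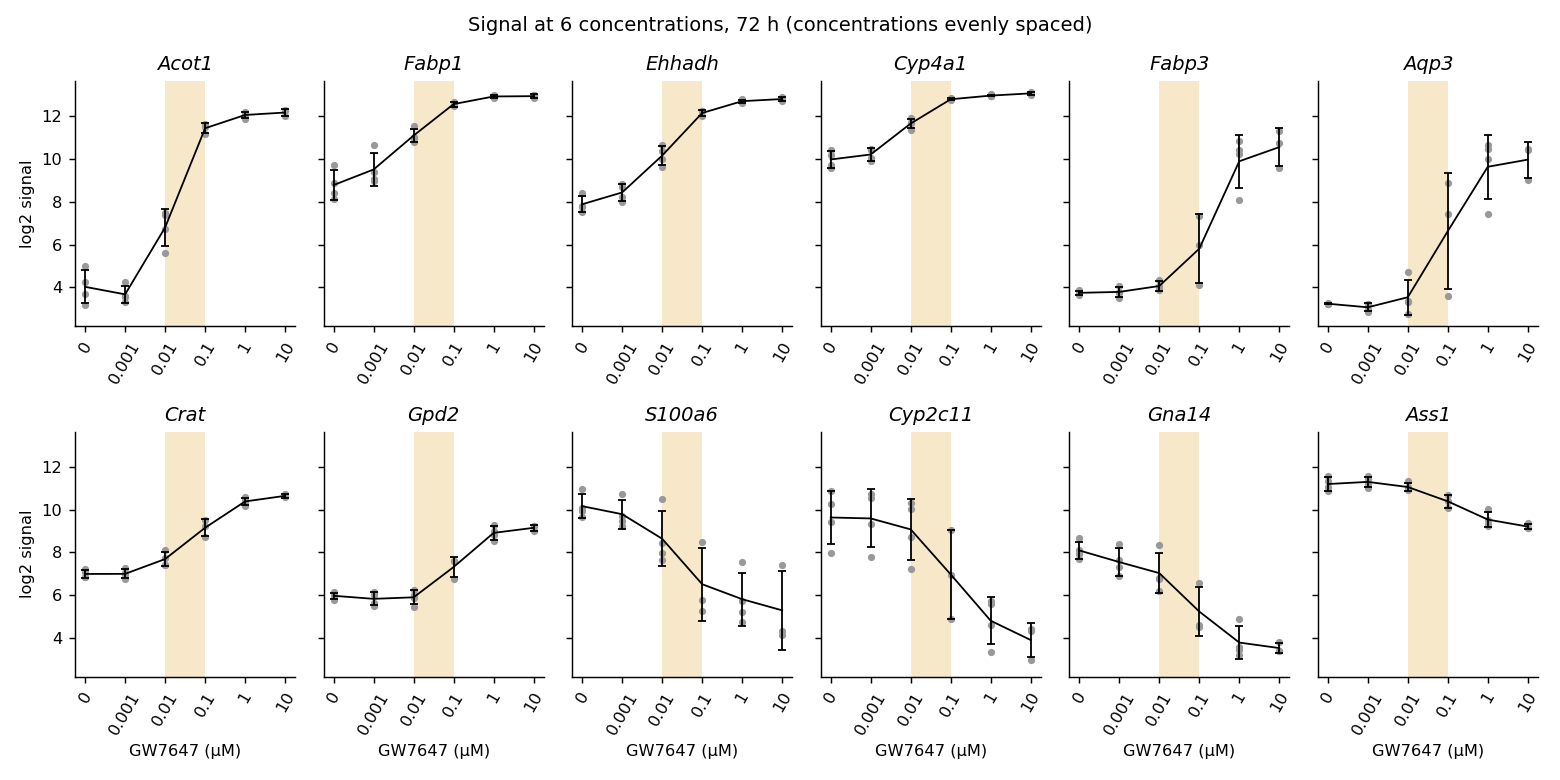
Log2 signal (vertical axis) of 12 genes at 6 concentrations of GW7647 after 72 h (horizontal axis, evenly spaced categories). Grey points are arrays, black lines join group means, bars are SD over 3 or 4 arrays, and the shaded band is the step from 0.01 to 0.1 µM. The means of Acot1, Fabp1, Ehhadh and Cyp4a1 gain less than 1 log2 unit above 0.1 µM, whereas Fabp3 goes on from 5.80 at 0.1 µM to 9.89 at 1 µM.

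The step was tested against its neighbours. Only Acot1 had a step from 0.01 to 0.1 µM that differed from the step from 0.1 to 1 µM (limma, 1 of 8247 genes, 0.0121%), by 4.26 ± 0.53 on the log2 scale (adjusted p = 0.00355), with 391 genes at an unadjusted p under 0.05. Its step to 1 µM was 0.50 (adjusted p = 0.323). The call was lost without Rs628 (0.182), without Rs631 (0.234), without the rat in the model (0.119) and without the 0.1 µM array of Rs632 (0.125). Ehhadh (1.56, adjusted p = 0.423), Ech1 (0.63, adjusted p = 0.305), Cyp4a1 (1.12, adjusted p = 0.305) and, with the opposite sign, Fabp3 (-2.12, adjusted p = 0.999) did not pass. No gene passed in the test against the step from 0.001 to 0.01 µM (limma, 0 of 8247, with 432 at an unadjusted p under 0.05). With 3 or 4 arrays a group, a step that misses these tests is not shown to equal its neighbour. Counted step by step, 31 genes differed between 0.001 and 0.01 µM (0.376%, all higher) and 591 between 0.1 and 1 µM (7.17%, 386 higher and 205 lower). The steps share arrays, so their lists are not compared. Median log2 differences over the 3 successive steps were 0.37, 0.63 and 0.33 for the mitochondrial list, 0.22, 0.44 and 0.18 for peroxisomal oxidation, 0.13, 0.29 and 0.39 for peroxins, and -0.17, -0.48 and -0.38 for the cytoskeletal list.

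Against 0 µM, 3035 genes differed at 0.1 µM (36.8%; 878 higher, 2157 lower) and 1556 at 0.01 µM (18.9%; 308 higher, 1248 lower). These splits depended on scaling. After quantile normalization they were 1344 higher and 1373 lower at 0.1 µM, and 403 higher and 181 lower at 0.01 µM, and the median over all genes moved from -0.13 to -0.02 and from -0.15 to -0.02. Ehhadh differed from 0 µM by 2.28 ± 0.18 at 0.01 µM and by 4.33 ± 0.20 at 0.1 µM, and Fabp1 by 2.31 ± 0.20 and 3.99 ± 0.22. S100a6 was lower at both concentrations, at -1.52 ± 0.34 and -3.80 ± 0.37. Cyp2c11 had not passed at 0.01 µM (-0.56 ± 0.33, adjusted p = 0.221) and was at -2.75 ± 0.37 at 0.1 µM. The mean 75th percentile was 6.98 ± 0.02 (SD, n = 4) at 0 µM and 6.73 ± 0.15 (SD, n = 4) at 0.01 µM, and the β-actin 3′ minus 5′ signal was 1.66 ± 0.18 and 1.94 ± 0.17, so that both moved with the group. The part of RNA integrity in the comparisons with 0 µM was not tested. The 0.01 µM count fell to 32 without Rs632, 73 without Rs627 and 360 without Rs631, and was 18 without the rat in the model.

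The same step in concentration was measured at 24 h, where 0.1 µM had arrays of Rs627, Rs628 and Rs631 and 0.01 µM had arrays of all 4 rats. There 629 of 8468 genes differed (7.43%; 425 higher, 5.02%, and 204 lower, 2.41%; after quantile normalization 949, with 506 higher and 443 lower). The count was 143 without the rat in the model, 291 without Rs627, 325 without Rs628, 403 without Rs631 and 357 without Rs632. Of the 592 genes at 72 h, 287 were also called at 24 h, all in the same direction, which is 48.5% of the 72 h list and 45.6% of the 24 h list. The 24 h call was shared by 221 of the 355 rises (62.3%) and by 66 of the 237 falls (27.8%). The compared arrays of the 2 times are different, but they come from the same 4 rats. The 24 h calls come from a fit of the arrays of both times, which share its estimate of the spread. Acot1 differed by 4.75 at 24 h and 4.76 at 72 h, Aqp7 by 2.92 and 2.88, Cpt1b by 2.29 and 2.43, and Ehhadh by 2.27 and 2.05. These genes were named by their size at 72 h. The mitochondrial list had 20 rises of 23 at each time, with medians of 0.62 and 0.63. Other lists differed more. In the uptake list 7 of 17 tested genes rose at 24 h and 3 at 72 h. In the xenobiotic list 4 of 20 rose at 24 h and 8 at 72 h. Differences between such counts were not tested.

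Among the falls, likewise named by their values at 72 h, several genes had smaller changes at 24 h. S100a6 was at -0.65 at 24 h (adjusted p = 0.363) and -2.28 at 72 h, Cyp2c11 at -0.71 (adjusted p = 0.174) and -2.19, and Fgb at -0.09 (adjusted p = 0.771) and -0.60, whereas Gna14 fell at both times (-1.67 and -1.93) and so did Pkdcc (-1.26 and -1.29). The test of the difference between the times passed for no gene (limma, 0 of 8468, with 305 at an unadjusted p under 0.05). Between the times Cyp2c11 differed by -1.48, S100a6 by -1.63 and Fgb by -0.51, each with a limma adjusted p of 0.999. Of the cytoskeletal list 3 of 20 fell at 24 h and 7 at 72 h, with medians of -0.31 and -0.48, and the difference between these counts was not tested.

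**Figure D4:**
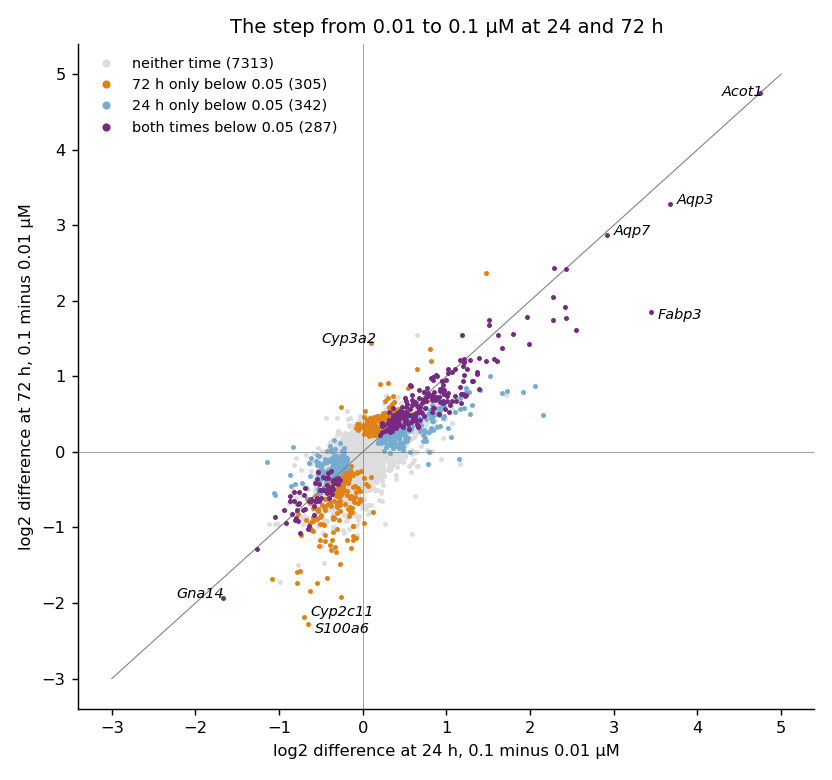
Log2 difference between 0.1 and 0.01 µM at 24 h (horizontal axis) and at 72 h (vertical axis) for the 8247 genes tested at 72 h. Colours mark an adjusted p under 0.05 at both times (287 genes), at 72 h but not 24 h (305), at 24 h but not 72 h (342) or at neither (7313), and the diagonal marks equal values. Acot1, Aqp7 and Gna14 lie near the diagonal, and S100a6 and Cyp2c11 lie below it.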

How the data were processed

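RNA of each culture was labelled with a 3′ expression kit and hybridised to an Affymetrix array, per the labels' protocols. Per the submitters' processing notes, GCRMA and Partek were used (no versions given). The table deposited by the authors holds log2 intensity by probe set and array, and it was analysed with no further scaling. Genome build and annotation version are not given in the sources used here.

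Of 31139 probe sets, 19069 carry 1 gene symbol, 572 several and 11498 none. RefSeq's rat gene table holds the gene IDs of 18989. Each of 13439 genes was represented by its brightest probe set on average. The 8247 genes above log2 5 in at least 3 of the 22 arrays at 72 h were tested in R 4.3.3 (limma 3.58.1, statmod 1.5.0), two-sided, from group means with the rat as a fixed block (13 residual degrees of freedom), and p-values were adjusted over these genes by Benjamini-Hochberg. For the step at 24 h and for the difference between times, arrays at 24 and 72 h were fitted together with the rat within time (25 degrees of freedom). The fit was tested on simulated data. Figures were drawn with Python 3.11.15 and matplotlib 3.10.9.

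The pairing comes from 4 replicate codes in the labels, read here as the 4 rats that the series' design text names. All 22 arrays at 72 h lay nearest to an array of their own rat (median correlation of deviations from group means 0.70 within rats, lowest 0.45, and -0.25 between rats).

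Named genes are drawn from a rule: up to 20 rises and 20 falls by size, with the same sign in all 3 pairs and a group mean above the floor, then list members by p, and list members that did not pass. The rule, the genes and the lists were chosen with earlier results of these data known, so no list is independent evidence. Alternatives covered the block, arrays fitted, scaling, filter, probe set, variance model and each rat left out. Leaving out each of the 7 arrays was added after the data were seen.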

Additional observations from a re-analysis of the deposited data

Results flagged for a closer look

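In the 0.01 µM group, 1 array stood apart from the other 3 by Dixon's ratio at the 95% level in 5 of 144 named genes, and chance flags about 1 group in 20. The array of Rs628 was the highest for Cox6a2 (7.31, the others 5.86 to 6.03), Anxa2 (12.34, the others 11.80 to 11.89) and Sdf2l1 (7.83, the others 7.28 to 7.34), and the lowest for Plin2 (12.14, the others 12.44 to 12.48). The array of Rs631 was the lowest for Pla2r1, the phospholipase A2 receptor (4.47, the others 8.02 to 8.07), a gene that fell by 1.92 (SE 0.53, adjusted p = 0.0383) between the concentrations but not without Rs627 (0.108), Rs628 (0.17) or Rs632 (0.163).

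The 75th percentile of the 0.01 µM array of Rs628 was 6.95, against 6.63 to 6.67 in the other 3. Without this array 426 genes differed between 0.1 and 0.01 µM, 293 higher and 133 lower.

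The step of Acot1 from 0.01 to 0.1 µM exceeded its step from 0.1 to 1 µM by 4.26 on the log2 scale, by a test of the difference itself.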

How the results depend on the processing

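Of the 114 named genes called, 26 passed in every alternative run and 58 without each rat in turn, and none changed sign with the same probe set. Calls were lost for 53 without Rs632, 38 without Rs628, 15 without Rs631, 13 without Rs627 and 80 with no replicate block. Plin2 was at -0.20 with another probe set (adjusted p = 0.689). Another probe set exists for 30 of the called genes, and for 19 one passed in the same direction. It did not for Plin2, Hadha, Eci1, Srebf1, Elovl6, Sdhd, Cxcl12, Gna14, Cav1, Anxa3 and Ccnd1. The cause of the changes below was not tested.

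The 592 genes differing between 0.1 and 0.01 µM became 56 with no replicate block, 88 with all 100 arrays and no replicate block, 128 with the compared groups alone, 283 without arrays at repeated positions, 259 at 1.5-fold or more and 1767 with array weights. They ranged from 126 to 491 without 1 rat and from 244 to 549 without 1 array (126 without Rs632, 244 without the 0.1 µM array of Rs632, 283 without that of Rs628). With a random replicate block (correlation 0.505) 459 passed.

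The 1 gene differing between steps became 0 with no replicate block, with all 100 arrays with or without the replicate block, with the compared groups alone and without arrays at repeated positions, and 28 with array weights. It was 0 to 1 without a rat or array. Array weights gave 1 gene against the lower step and 8 between the times, where 0 to 1 passed without 1 array.

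The 3035 genes differing between 0.1 and 0 µM became 636 with no replicate block, 784 with all 100 arrays and no replicate block, 1510 with the compared groups alone, 4824 of 14221 with every probe set and 1219 at 1.5-fold or more. They ranged from 1832 to 2382 without 1 rat and from 2043 to 3061 without 1 array.

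The 1556 genes differing between 0.01 and 0 µM became 18 with no replicate block, 204 and 36 with all 100 arrays with and without the replicate block, 584 after quantile normalization, 839 with a floor of log2 7, 2791 of 14221 with every probe set, 2808 with array weights and 390 at 1.5-fold or more. They ranged from 32 to 2037 without 1 rat and from 278 to 2404 without 1 array. The replicate block changed calls as given here, and in the report beside the counts. At 24 h the 629 genes became 147 with all 100 arrays and no replicate block, 956 without arrays at repeated positions, 239 at 1.5-fold or more and 1835 with array weights. Signal at or under the floor in some arrays limits the folds of Aqp3, Fabp3, Cyp2e1, Cacna2d3, Gna14, Nr1i3, Cxcl12 and Cyp2c11, among others, and of Acot1 against 0 µM.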
